A study of Mus musculus with 10 samples.

Results

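Keratin genes of simple epithelium and genes linked to injured alveolar epithelium were followed in mouse lung during hyperoxia. The set comprised 10 genes chosen by name: the keratins Krt7, Krt8, Krt18 and Krt19, the tight junction gene Cldn4, the 14-3-3 gene Sfn, the growth factor genes Areg and Hbegf, the integrin gene Itgb6 and the cornified envelope gene Sprr1a. Of these, 9 were measured, by 13 probe sets, among 18193 genes with a probe set of a single symbol. No probe set was paired with Areg in the annotation used, and it was not analysed here. All 9 passed the filter on low signal (a log2 signal of 5 or more on at least 2 arrays), as did 14988 genes in all. Sprr1a passed it only through the 2 P29 room-air arrays, at 5.02 and 5.06.

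The study used high oxygen after birth as a model of bronchopulmonary dysplasia, a lung disease that follows preterm birth. ICR mouse pups breathed 80% oxygen (hyperoxia, titled BPD) or room air (titled WT) for 14 or 29 days from birth, to postnatal day 14 (P14) or 29 (P29). The newborn pups had been pooled and randomized, and nursing dams were rotated between the exposures each day. Total RNA of dissected whole lung was hybridised to 3 hyperoxia and 2 room-air arrays at each age, 10 arrays in all. All groups shared the strain and the nursing scheme, and the labels name no transgene or mutation. Whether each array is 1 animal is not stated in the labels, and p-values therefore measure only how these samples scatter, which may be technical scatter alone.

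In background, keratins form the intermediate filaments of epithelial cells as obligate pairs of a type I and a type II chain, and simple epithelium such as that of the lung and the mesothelium uses Krt8 with Krt18, together with Krt7 and Krt19. When the alveolar epithelium is injured, type 2 cells that turn into type 1 cells are known to pass through a transitional state with high Krt8, Cldn4, Sfn, Krt19 and Areg. Integrin beta 6 pairs with the alpha v chain on injured epithelium and releases active TGF-beta from its latent complex, and the EGF receptor ligands drive epithelial spreading and division.

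The 4 groups differed in more than their oxygen. The actin control has probe sets at its 3' and 5' ends, and the gap between them widens in degraded or poorly copied RNA. This gap spanned 1.33 to 2.21 on the hyperoxia arrays of P14 and 0.32 to 0.54 on those of room air, and 1.72 to 1.86 against 0.52 to 0.74 at P29. Xist, a transcript of female cells, was at 12.48 and 12.66 in P29 room air but at 7.12, 12.54 and 11.94 in P29 hyperoxia, and below 7 on all 5 P14 arrays, so the P29 groups were not alike in it. Arrays of the same group correlated at 0.993 to 0.996 across genes. The lung label held, since the alveolar type 2 markers (surfactant protein C, Sftpc) and type 1 markers (Ager) were among the brightest signals in every group.

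At P14, Krt7, Krt8, Krt18, Sfn and Itgb6 were higher in hyperoxia than in room air. This made 5 of the 9 measured genes, with 0 lower, where 32.3% of all 14988 genes were called higher and 22.8% lower (limma, Benjamini-Hochberg adjusted p under 0.05). At P29, Itgb6 and Sfn were higher and Krt19, Cldn4 and Sprr1a were lower, 2 and 3 of the 9 genes against 34.2% and 25.6% of all genes. Calls were thus common over the whole array, and with 9 genes these counts say little about the set. Sprr1a passed the filter only through its P29 room-air arrays. Its place in the lower counts at P29 given here therefore supports nothing by itself. Only Itgb6 passed a fold of 2, upward at both ages. A call of 2-fold or more was made upward for 3.94% of all genes at P14 and 4.98% at P29, and downward for 1.01% and 2.38%. The effects at the 2 ages were called different for 2 of the 9 genes, both with a lower effect at P29, where 11.6% of all genes (1735) had a lower effect and 1642 genes a higher one. The arrays of hyperoxia and room air did not overlap for 7 of the 9 genes at P14 (5 higher and 2 lower, where 39.6% and 31.7% of all genes did so) and for 8 at P29 (4 and 4, where 41.2% and 33.1% did so). The median log2 fold change of the 9 genes was 0.28 at P14 and 0.02 at P29, beside 0.04 at both ages over all genes. In bulk lung, fewer cells of a type and less RNA per cell cannot be told apart.

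**Figure D1:**
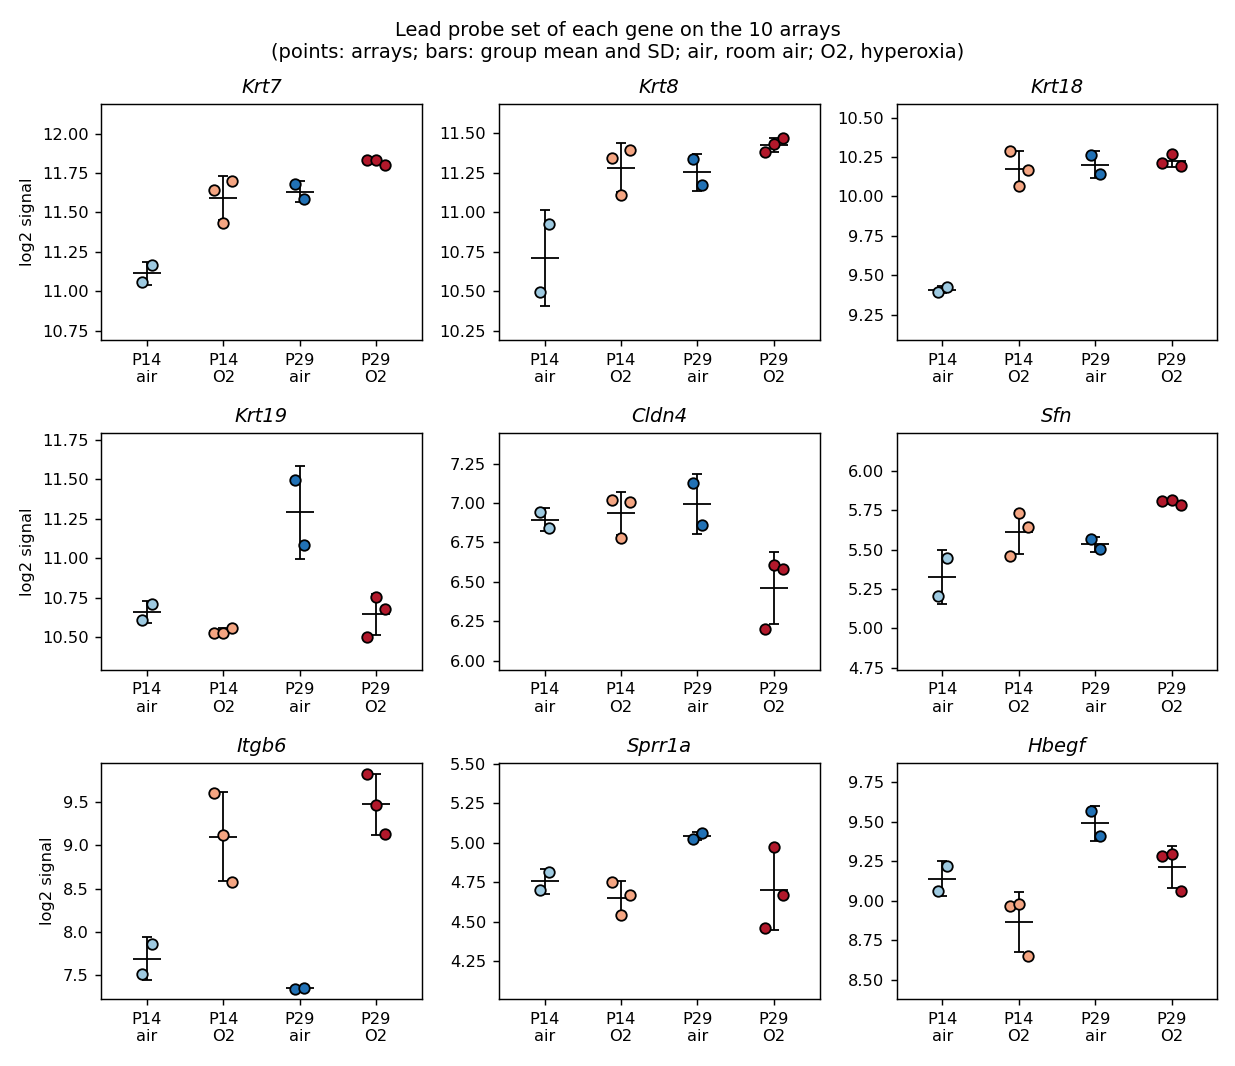
Log2 signal of the lead probe set of each of the 9 measured genes (vertical axes) on each of the 10 arrays, by group; points are arrays and bars show the group mean and SD. Krt7, Krt8 and Krt18 were lowest on the 2 P14 room-air arrays, and the hyperoxia arrays of Itgb6 lay above the room-air arrays at both ages.

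Krt18, the type I partner of Krt8, showed the clearest change among the keratins at P14. Its log2 signal read 9.39 and 9.43 on the room-air arrays of P14 and 10.29, 10.07 and 10.17 on the P14 hyperoxia arrays. The groups did not overlap, and the hyperoxia mean was 1.70-fold higher (log2 difference 0.76 ± 0.09 SE, adjusted p = 4.18e-05). At P29 the signal was 10.26 and 10.14 in room air and 10.21, 10.27 and 10.19 in hyperoxia. There the arrays overlapped and the difference was 0.02, with a 95% confidence interval from -0.16 to 0.21. The hyperoxia effect on Krt18 was smaller at P29 than at P14 by a test of the difference itself (-0.74 ± 0.12 SE, adjusted p = 0.00138). Xist was high on both P29 room-air arrays and P29 hyperoxia replicates 2 and 3 but on no P14 array, so age and sex are mixed in this test.

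Krt8, the type II partner, stood at 10.49 and 10.92 in P14 room air and at 11.34, 11.11 and 11.40 in P14 hyperoxia. All hyperoxia arrays lay above both room-air arrays, which differed between themselves by more than the hyperoxia arrays did. The rise was 1.49-fold (0.57 ± 0.13 SE, adjusted p = 0.0031). Without room-air replicate 2 it was 0.79 and without replicate 1 it was 0.36 (adjusted p = 0.0461). The other 2 probe sets of Krt8 gave 0.56 and 0.64 at P14, although both are of the kind whose probes may also bind other transcripts. At P29 the lead probe set read 11.34 and 11.17 in room air against 11.38, 11.43 and 11.47 in hyperoxia, a difference of 0.17 ± 0.13 (SE) that did not pass the test (adjusted p = 0.259).

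Krt7, a second type II keratin of simple epithelium, read 11.06 and 11.16 in P14 room air and 11.64, 11.43 and 11.70 in P14 hyperoxia. It rose by 0.48 ± 0.09 (SE, adjusted p = 0.00119), with no overlap of the arrays. At P29 the values were 11.68 and 11.58 in room air and 11.83, 11.83 and 11.80 in hyperoxia. These groups did not overlap either, a state that 41.2% of all genes showed in this direction, and the difference of 0.19 ± 0.09 (SE) did not pass the test (adjusted p = 0.0897). The tests of whether the effect differed between the ages did not pass for Krt7 (-0.29, adjusted p = 0.137) or Krt8 (-0.40, adjusted p = 0.14).

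With this actin gap as a covariate, which left 812 genes higher and 579 lower at P14 in place of 4838 and 3412, the P14 calls of Krt7 (0.32, adjusted p = 0.322), Krt8 (0.31, adjusted p = 0.493) and Sfn (0.10, adjusted p = 0.797) ended. Those of Krt18 (0.86, adjusted p = 0.029) and Itgb6 (2.63, adjusted p = 0.013) did not. The gap was wider on every hyperoxia array than on every room-air array, so oxygen and the gap cannot be told apart. The term also widened the SE, for Krt8 at P14 from 0.13 to 0.29. Calls lost or kept in any fit with the actin term given here therefore do not decide between oxygen and the gap.

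The same 3 keratins were higher at P29 than at P14 in room air. Both P29 room-air arrays had the high Xist signal and neither P14 room-air array did. In every room-air comparison between the ages given here age and sex therefore cannot be told apart. Among the hyperoxia arrays, Xist was high on none at P14 and on replicates 2 and 3 at P29. So age and sex are also mixed in every comparison between the ages in hyperoxia and every difference of the hyperoxia effects given here. Krt7 rose by 0.52 ± 0.10 (SE, adjusted p = 0.00156), Krt8 by 0.54 ± 0.14 (adjusted p = 0.00881) and Krt18 by 0.79 ± 0.09 (adjusted p = 4.65e-05) between these ages. With Krt19 these made 4 of the 9 genes, with 0 lower, where 22.2% of all genes were called higher and 19.1% lower. The arrays did not overlap for 7 genes in the upward direction and 1 in the downward, a state of 36.0% and 33.0% of all genes. The call of Krt8 ended without P14 room air replicate 1 (0.33, with the highest adjusted p of any left-out array at 0.0793) and without P29 room air replicate 1 (0.46). This comparison and that of P14 hyperoxia with P14 room air share the 2 P14 room-air arrays, which were the lowest of all 10 for Krt7, Krt8 and Krt18. In order of level, P14 room air came first for these genes. P14 hyperoxia and P29 room air followed with overlapping arrays, and P29 hyperoxia was highest in mean, though it differed from P29 room air by the test for none of the 3. Between the ages in hyperoxia no change passed for the 3 genes, with 0.23 ± 0.08 (SE, adjusted p = 0.0585) for Krt7, 0.14 ± 0.11 (adjusted p = 0.395) for Krt8 and 0.05 ± 0.08 (adjusted p = 0.684) for Krt18. In that comparison 1 of the 9 genes rose (Hbegf) and 1 fell (Cldn4), where 15.4% and 11.7% of all genes did. The arrays did not overlap for 3 genes in the upward direction and 1 in the downward, a state of 25.3% and 20.0% of all genes.

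The RefSeq promoters of these 3 keratins are shown because the genes moved together, beside those of Itgb6 and Cldn4, which moved otherwise. Each is the stretch of 250 bases before the gene's start in GRCm38.p6, read 5′ to 3′ along the gene, and capitals mark matches, on either strand, to an AP-1 site (TGANTCA), a GC box (GGGCGG) or a TATA box (TATAAA).
Krt7, chr15:101412153-101412402, plus strand: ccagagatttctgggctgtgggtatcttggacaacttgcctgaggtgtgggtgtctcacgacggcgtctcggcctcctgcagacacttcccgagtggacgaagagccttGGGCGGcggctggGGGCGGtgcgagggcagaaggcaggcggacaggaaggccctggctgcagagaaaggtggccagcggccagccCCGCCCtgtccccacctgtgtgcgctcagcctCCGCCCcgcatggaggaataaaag
Krt8, chr15:102004343-102004592, minus strand: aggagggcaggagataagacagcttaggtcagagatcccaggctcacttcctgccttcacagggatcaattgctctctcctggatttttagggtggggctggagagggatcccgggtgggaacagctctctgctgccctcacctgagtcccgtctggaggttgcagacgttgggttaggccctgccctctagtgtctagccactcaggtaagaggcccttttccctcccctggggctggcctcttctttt
Krt18, chr15:102027966-102028215, plus strand: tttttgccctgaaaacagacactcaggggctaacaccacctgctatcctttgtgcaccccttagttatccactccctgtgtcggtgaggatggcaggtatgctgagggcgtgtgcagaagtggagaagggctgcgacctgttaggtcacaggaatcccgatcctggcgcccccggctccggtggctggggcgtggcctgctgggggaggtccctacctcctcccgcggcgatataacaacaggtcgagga
Itgb6, chr2:60722604-60722853, minus strand: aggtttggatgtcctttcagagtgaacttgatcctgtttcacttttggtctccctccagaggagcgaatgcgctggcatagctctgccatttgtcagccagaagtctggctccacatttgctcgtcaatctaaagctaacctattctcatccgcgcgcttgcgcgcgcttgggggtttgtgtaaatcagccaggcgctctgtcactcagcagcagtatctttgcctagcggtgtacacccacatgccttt
Cldn4, chr5:134946935-134947184, minus strand: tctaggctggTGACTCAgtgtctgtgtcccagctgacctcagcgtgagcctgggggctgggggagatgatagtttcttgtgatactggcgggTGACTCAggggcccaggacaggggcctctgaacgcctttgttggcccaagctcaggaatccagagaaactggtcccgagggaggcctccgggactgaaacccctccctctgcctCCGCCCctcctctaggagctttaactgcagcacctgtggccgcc
Krt8 and Krt18 lie close together on chromosome 15, and neither window held any of the 3 motifs, whereas that of Krt7 held 4 GC boxes. That of Cldn4 held 2 AP-1 sites and 1 GC box, and that of Itgb6 none of the 3. RefSeq windows were kept for 8 of the 10 genes, with 2 starts for Itgb6. Windows on 1 chromosome were left out before this count, so it may fall short of what RefSeq holds. Beyond those printed, Sprr1a had 2 AP-1 sites and a TATA box, Areg a GC box and a TATA box, and Sfn none of the 3. Over all 32851 RefSeq promoters, 6.75% held an AP-1 site in this window, 32.7% a GC box and 12.4% a TATA box.

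Krt19, a type I keratin without a tail domain, did not follow the other keratins. It was at 10.61 and 10.71 in P14 room air and at 10.52, 10.52 and 10.56 in P14 hyperoxia, a difference of -0.12 ± 0.12 (SE, adjusted p = 0.39). At P29 it read 11.50 and 11.08 in room air and 10.50, 10.76 and 10.68 in hyperoxia. The room-air arrays of P29 stood above all others, and hyperoxia was 1.56-fold lower (-0.65 ± 0.12 SE, adjusted p = 0.000792). In room air Krt19 rose with age by 0.63 ± 0.13 (SE, adjusted p = 0.00232), a comparison that uses the same P29 room-air arrays, and in hyperoxia it did not pass (0.11 ± 0.11, adjusted p = 0.494). Without P29 room air replicate 1 the P29 difference was -0.44. The effect at P29 was lower than at P14 by 0.52 on the log2 scale (adjusted p = 0.0454), a narrow call that ended in 8 of the 10 fits that left out an array. With the actin term the P29 call ended too (-0.65, adjusted p = 0.109), with the difference unchanged and an SE of 0.26 in place of 0.12.

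**Figure D2:**
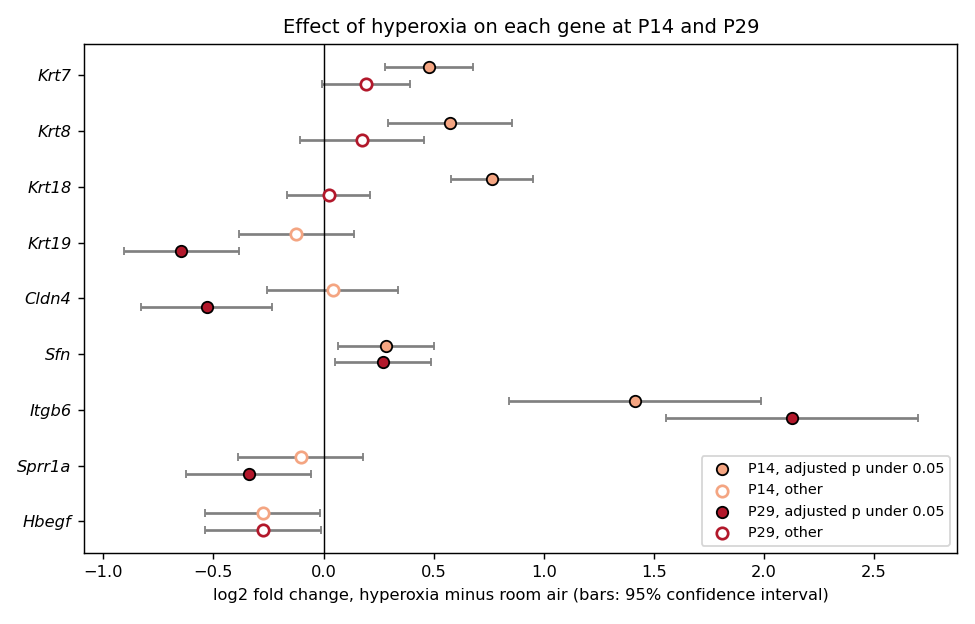
Log2 fold change of hyperoxia against room air (horizontal axis) for each of the 9 genes at P14 and P29; bars are 95% confidence intervals and filled points have an adjusted p under 0.05. Krt18 lies at 0.76 at P14 and 0.02 at P29, Krt19 at -0.12 and -0.65, and Itgb6 at 1.41 and 2.13.

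Markers of other cell types that carry simple keratins were counted beside Krt7, Krt8 and Krt18. The counts of this and later lists are to be read beside the shares of all genes. Of all genes 32.3% rose and 22.8% fell at P14, and 34.2% rose and 25.6% fell at P29. Between the ages 22.2% rose and 19.1% fell in room air, and 15.4% rose and 11.7% fell in hyperoxia. A lower effect at P29 was called for 11.6%. Of 9 mesothelial markers, all 9 were higher at P14 in hyperoxia, with a median log2 fold change of 1.61. The summed linear signal of the list reached 4347 to 4822 on the P14 hyperoxia arrays and 1822 to 2239 in P14 room air, and 3079 to 4230 against 4188 to 4274 at P29. Gpm6a rose by 1.99 ± 0.09 (SE) and Muc16, the mucin CA125, by 1.92 ± 0.16 at P14. At P29, 1 of the 9 was higher and 1 lower, with a median of -0.20, and 7 of the 9 had a lower effect at P29 by the test of the difference. In room air 8 of the 9 rose and 1 fell between the ages, whereas in hyperoxia 1 rose and 6 fell (median -0.49), where none of the 3 keratins was called. So the mesothelial sum, like the 3 keratins, was lowest in P14 room air, but the list went down with age in hyperoxia. Its part in the keratin values was not tested.

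Airway and general epithelial markers were counted in the same way. Of 11 ciliated cell markers 10 rose and 0 fell at P14 (median 1.08), and 4 rose and 1 fell at P29 (median 0.24). Of 10 pan-epithelial markers that passed the filter 7 rose and 1 fell at P14 (median 0.54). At P29 4 of them rose and 2 fell (median 0.19). By the test of the difference, 9 ciliated and 3 pan-epithelial markers had a lower effect at P29 and 0 a higher one. E-cadherin, Cdh1, rose by 1.12 ± 0.09 (SE) and the epithelial adhesion molecule Epcam by 0.78 ± 0.09 at P14. The pan-epithelial markers Grhl2, Esrp1 and Epcam rose by 0.92, 0.86 and 0.67 at P29. The lung epithelial transcription factor Nkx2-1 fell by 0.81 at P14 and by 1.14 ± 0.18 at P29. The summed signal of the pan-epithelial list was 7134 to 7646 in P14 hyperoxia and 4022 to 4271 in P14 room air, and 8004 to 8630 against 6003 to 6348 at P29. The sums of ciliated markers were 5837 to 6534 against 3940 to 4507 at P14, and overlapped at P29. Their mean log2 signal at P29 was 8.57 to 8.79 in hyperoxia and 8.31 to 8.53 in room air, without overlap. Of 9 club and secretory markers 5 rose and 2 fell at P14 (median 0.35), 3 rose and 5 fell at P29 (median -0.19), and all 9 rose with age in room air. Their summed signal was 80066 to 84389 in P14 hyperoxia and 47775 to 50598 in P14 room air, and overlapped at P29, at 101666 to 103292 against 98118 to 103198. Their mean log2 signal did not overlap at P29, at 11.65 to 11.88 in hyperoxia and 12.44 to 12.69 in room air. Among them Cyp2f2, a cytochrome P450 of club cells, rose by 1.07 ± 0.07 at P14 and the secretoglobin Scgb3a1 fell by 2.74 ± 0.20. The part of these lists in the keratin values was not tested.

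Alveolar cells carry Krt8 and Krt18 too, and their markers were counted in the same way. At P14 32.3% of all genes rose and 22.8% fell. At P29 34.2% of all genes rose and 25.6% fell. Of 10 alveolar type 2 markers 5 fell and 0 rose at P14, and 6 fell and 0 rose at P29, and Sftpb, which encodes surfactant protein B, fell by 1.55 ± 0.18 (SE) and by 1.74 ± 0.18. Of 11 alveolar type 1 markers 2 rose and 1 fell at P14, and 4 rose and 5 fell at P29. The small GTPase effector Rtkn2 was up by 0.72 ± 0.09 and 0.75 ± 0.09 and caveolin 1, Cav1, down by 0.74 at P29. The mean log2 signal of the type 1 list, like the 3 keratins, was lowest in P14 room air. It was 11.63 to 11.68 there and 11.75 to 11.85 in P14 hyperoxia. At P29 it was 11.95 to 12.09 in room air and 11.92 to 12.03 in hyperoxia. The summed signal of the type 1 list overlapped at P14. The part of the type 1 and type 2 lists in the keratin values was not tested. Of 10 basal and squamous markers with a probe set, 4 lay below the filter (Krt13, Krt14, Krt17 and Lypd3). Of the other 6, 1 rose and 3 fell at P14 and 2 fell at P29. The summed signal of all 10 was 390 to 426 in P14 hyperoxia and 464 to 478 in P14 room air, and 368 to 427 against 473 to 510 at P29. The mean log2 signal of this list lay between 4.90 and 5.27 on every array. That is near the filter level of 5, which limits what these sums can show.

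**Figure D3:**
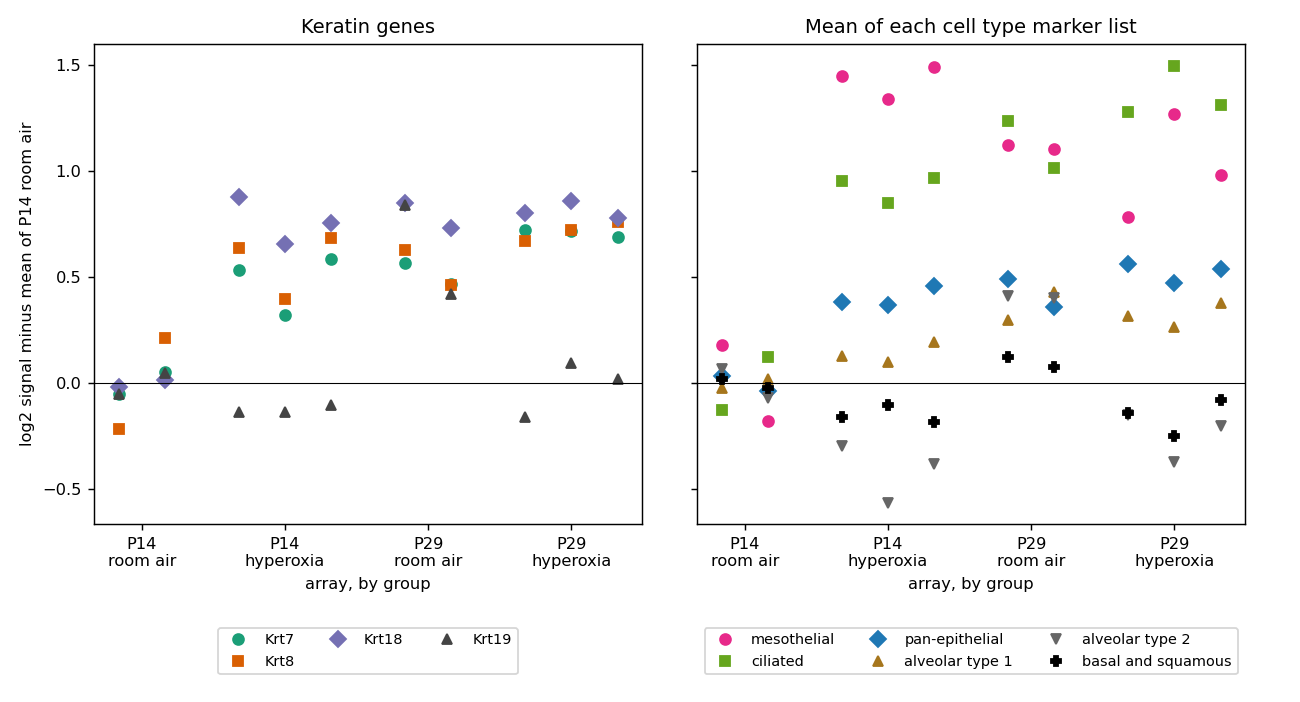
Log2 signal of the 4 keratins (left) and mean log2 signal of 6 lists of cell type markers (right) on each array, each set to its mean over the 2 P14 room-air arrays, with groups along the horizontal axis. Krt7, Krt8 and Krt18 and the mesothelial, ciliated, pan-epithelial and alveolar type 1 lists lie lowest in P14 room air, whereas Krt19 stands highest in P29 room air.

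Genes that build on keratin filaments, and the other keratins, were also followed. Of 10 linker and desmosome genes 4 rose and 1 fell at P14, with a median of 0.25, where 32.3% of all genes rose and 22.8% fell. Desmoplakin, Dsp, which ties keratin filaments to the desmosome, rose by 1.35 ± 0.10 (SE), from 9.05 and 9.37 in room air to a mean of 10.56 ± 0.07 (SD, n = 3) in hyperoxia. The desmosomal cadherin Dsg2 rose by 1.75 ± 0.14 and plakophilin 2, Pkp2, by 1.12 ± 0.09. At P29, 3 of the 10 rose and 3 fell, where 34.2% and 25.6% of all genes did. Pkp2 and Dsg2 rose by 0.83 and 0.82, and the envelope linker periplakin, Ppl, fell by 1.05 ± 0.11. In room air 7 of the 10 rose with age and 0 fell, where 22.2% and 19.1% of all genes did.

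Of 14 other keratins, 5 lay below the filter, and of the 9 tested 3 rose and 3 fell at P14 and 1 rose and 5 fell at P29. Of all genes 32.3% rose and 22.8% fell at P14, and 34.2% rose and 25.6% fell at P29. Krt79, a type II keratin best known from skin, had the largest change among them. Its mean was 6.38 ± 0.24 (SD, n = 2) in P14 room air, 5.76 ± 0.06 (SD, n = 3) with hyperoxia at that age, and 7.98 ± 0.02 (SD, n = 2) in P29 room air against 5.76 ± 0.11 (SD, n = 3) in P29 hyperoxia. Its fold with age in room air was thus 3.03, and it fell by 2.22 ± 0.11 (SE, adjusted p = 1.27e-07) under hyperoxia at P29. Both Krt79 and Krt19 were highest on the P29 room-air arrays.

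Itgb6, the integrin beta 6 chain, had the largest effect of the 9 genes. Its lead probe set read 7.51 and 7.86 in P14 room air and 9.60, 9.12 and 8.57 in P14 hyperoxia. At P29 it read 7.34 and 7.35 in room air and 9.83, 9.47 and 9.13 in hyperoxia. The groups were apart at both ages, and the hyperoxia arrays spread more widely than those of room air. The rise was 2.66-fold at P14 (1.41 ± 0.26 SE, adjusted p = 0.000972) and 4.37-fold at P29 (2.13 ± 0.26 SE, adjusted p = 4.96e-05). Without any 1 array it stayed between 1.16 and 1.68 at P14 and between 1.95 and 2.30 at P29, and it was 2.12 at P29 with hyperoxia replicate 2 as the only hyperoxia array, whose Xist signal was that of the room-air arrays. The 2 effects differed by 0.71 ± 0.37 (SE, adjusted p = 0.195).

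The second probe set of Itgb6 gave smaller changes. It read 7.76 and 7.54 in P14 room air and 8.21, 7.80 and 7.44 in P14 hyperoxia, with overlapping arrays and a difference of 0.16 ± 0.20 (SE, adjusted p = 0.541 over all probe sets). At P29 it read 7.32 and 6.98 against 7.88, 8.14 and 7.71, a rise of 0.76 ± 0.20 (SE, adjusted p = 0.00951). The rise of Itgb6 at P14 therefore rests on the lead probe set. The mean of both probe sets rose by 0.79 at P14 (adjusted p = 0.0091) and by 1.44 at P29 (adjusted p = 0.000186).

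Of 14 tested integrin partners and genes of TGF-beta activation 6 rose, 4 fell and 4 were not called at P14 (median 0.28), and 7 rose, 2 fell and 5 were not called at P29 (median 0.55), where 34.2% of all genes rose. The alpha v chain Itgav, with which beta 6 forms its only receptor, rose by 1.09 ± 0.11 (SE, adjusted p = 1.55e-05) at P29, from 10.87 and 10.92 in room air to between 11.88 and 12.11. At P14 it rose by 0.30 (adjusted p = 0.0428). Itgb8, another beta chain known to free TGF-beta by binding its latent complex with alpha v, was at 4.43 and 4.54 in P29 room air, below the filter. It was between 6.62 and 7.06 in P29 hyperoxia. No fold is given against that dim signal. Itgb8 is among the 7 genes counted as risen at P29, and its place there supports nothing by itself. At P14 Itgb8 rose by 0.99 ± 0.19 (SE, adjusted p = 0.00117). The latent TGF-beta binding protein Ltbp1 rose at both ages (0.83 ± 0.09 and 0.63 ± 0.09 SE). The ligand Tgfb2 rose by 1.82 ± 0.13 at P29, whereas Tgfb1 fell by 0.89 ± 0.14 at P14 and by 0.65 at P29. In room air Itgav and Tgfb2 fell with age by 0.75 and 2.03, a comparison that shares the 2 P29 room-air arrays.

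**Figure D4:**
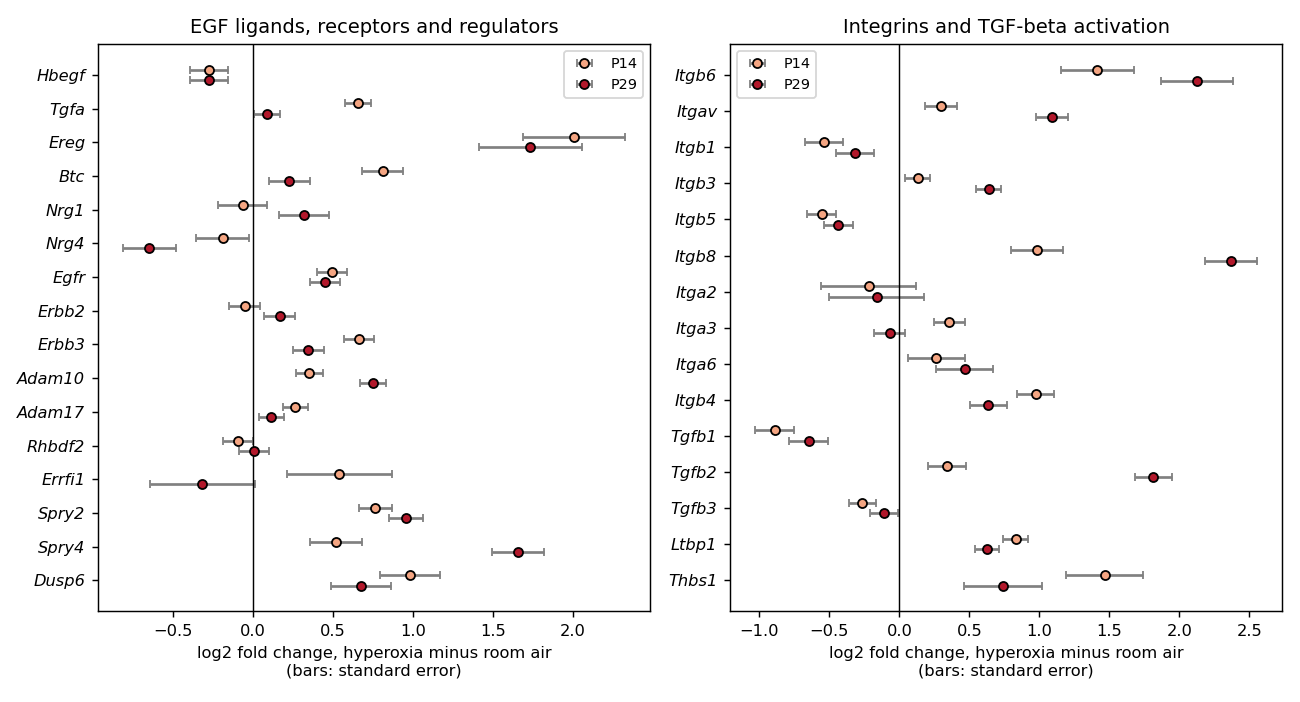
Log2 fold change of hyperoxia against room air (horizontal axes, bars are standard errors) at P14 and P29 for Hbegf with other EGF ligands, receptors and regulators (left) and for Itgb6 with other integrins and genes of TGF-beta activation (right). Hbegf lies at -0.28 at both ages, and Tgfb2 at 0.34 and 1.82; the values of Ereg at both ages and of Itgb8 at P29 are taken against room-air signals near or below the filter.

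Hbegf, the heparin-binding ligand of the EGF receptor, was not called at either age. Its lead probe set read 9.06 and 9.22 in P14 room air and 8.97, 8.98 and 8.65 in P14 hyperoxia, and 9.57 and 9.41 against 9.29, 9.29 and 9.06 at P29. The hyperoxia arrays lay below those of room air at both ages, a state shown by 31.7% and 33.1% of all genes, and the difference was -0.28 ± 0.12 (SE) at both (adjusted p = 0.0688 and 0.0656). It passed as lower after quantile normalization (-0.42 at both ages). The second probe set gave 0.06 at P14 and -0.09 at P29, with overlapping arrays at both. With age Hbegf rose in hyperoxia by 0.35 ± 0.11 (SE, adjusted p = 0.0312), and the like difference in room air narrowly missed the threshold (0.35 ± 0.13, adjusted p = 0.0518). The room-air rise did pass in 9 alternatives, among them the mean of probe sets (0.42, adjusted p = 0.00174). In the second probe set it passed in room air (0.48, adjusted p = 0.0152) and not in hyperoxia (0.33, adjusted p = 0.0512), so no contrast between the exposures is drawn. The rise in hyperoxia did not pass without P14 hyperoxia replicate 3, or without P29 hyperoxia replicate 1 or 2.

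The other genes of the EGF receptor pathway were counted beside Hbegf, with no test of a difference from it. Of 15 tested ligands, receptors and regulators 10 rose and 0 fell at P14 (median 0.52), where 32.3% of all genes rose and 22.8% fell. At P29 7 rose and 1 fell (median 0.32), where 34.2% and 25.6% of all genes did. The 15 include Ereg, which passed the filter only with the help of its hyperoxia arrays, so its place in these counts supports nothing by itself. Egf, Epgn and Erbb4 lay below the filter. Among the ligands, transforming growth factor alpha, Tgfa, rose by 0.66 ± 0.08 (SE) at P14 and was not called at P29 (0.09, adjusted p = 0.357). Betacellulin, Btc, rose by 0.81 ± 0.13 at P14 and was not called at P29 (0.23, adjusted p = 0.145). The ligand Nrg4, a neuregulin, was not called at P14 (-0.19, adjusted p = 0.348) and fell by 0.65 ± 0.17 at P29 (adjusted p = 0.00594). Epiregulin, Ereg, was at 4.71 and 5.11 in P14 room air and between 6.48 and 7.18 in P14 hyperoxia, and at 4.53 and 4.65 against 5.67 to 7.04 at P29. Its arrays did not overlap, and since the room-air signal was near or below the filter no fold is given. The receptor Erbb3 rose by 0.66 ± 0.10 at P14, and Spry2 and Spry4, feedback inhibitors of receptor tyrosine kinase signalling, rose by 0.96 ± 0.10 and 1.66 ± 0.16 at P29.

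Cldn4, a claudin of tight junctions that limits the leak of ions between alveolar cells, was at 6.95 and 6.84 in P14 room air and at 7.02, 6.78 and 7.01 in P14 hyperoxia. These arrays overlapped (0.04 ± 0.14 SE, adjusted p = 0.812). At P29 it read 7.13 and 6.86 in room air and 6.20, 6.61 and 6.58 in hyperoxia, 1.44-fold lower (-0.53 ± 0.14 SE, adjusted p = 0.00603). All P29 hyperoxia arrays lay below the other 7, and between the ages in hyperoxia Cldn4 fell by 0.47 (adjusted p = 0.0141). Leaving out P29 room air replicate 1 ended the P29 call (-0.39, adjusted p = 0.0733), as did a fit with hyperoxia replicate 2 as the only P29 hyperoxia array (-0.38, adjusted p = 0.063). It also ended with the actin term (-0.59, adjusted p = 0.192). The fall with age in hyperoxia ended without P14 hyperoxia replicate 1 or 3. The effects at the 2 ages were not called different (-0.57 ± 0.19 SE, adjusted p = 0.0538), close to the threshold. They were called different with the stricter filter (adjusted p = 0.0469), with the trend and robust fit (adjusted p = 0.0488) and without P14 hyperoxia replicate 2, P29 room air replicate 2 or P29 hyperoxia replicate 2.

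Of 15 other claudin and tight junction genes, 8 rose and 2 fell at P14, where 32.3% of all genes rose, and 5 rose and 6 fell at P29, where 34.2% rose. At P14 Cldn10 rose by 1.36 ± 0.10 (SE) and Cldn8 by 1.13 ± 0.13. At P29 Cldn1 rose by 1.12 ± 0.14, and Cldn3, a claudin of alveolar type 2 cells, and Ocln, or occludin, fell by 0.86 and 0.65. Over the 15 genes the median was 0.35 at P14 and -0.04 at P29.

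Sfn, or 14-3-3 sigma, an epithelial adaptor that holds cells in G2 and is a p53 target, was dim throughout. It read 5.21 and 5.45 in P14 room air and 5.46, 5.73 and 5.64 in P14 hyperoxia. The lowest hyperoxia array lay only just above the higher room-air array (0.28 ± 0.10 SE, adjusted p = 0.0306). At P29 it read 5.56 and 5.50 against 5.81, 5.81 and 5.78 (0.27 ± 0.10 SE, adjusted p = 0.0346). The P14 call ended without P14 room air replicate 1 (0.16, adjusted p = 0.262) and without P14 hyperoxia replicate 2 or 3, and the P29 call ended when any 1 of the 5 P29 arrays was left out. Set to each array's 75th percentile, the differences were 0.18 and 0.14 and neither passed. Of the 6 other 14-3-3 genes 2 rose at each age and 0 fell, where 32.3% of all genes rose at P14 and 34.2% at P29.

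Sprr1a, a precursor of the cornified envelope that squamous cells lay down, was near the floor of the array. It read 4.70 and 4.81 in P14 room air, 4.75, 4.54 and 4.67 in P14 hyperoxia, 5.02 and 5.06 in P29 room air and 4.46, 4.97 and 4.67 in P29 hyperoxia. The P29 hyperoxia arrays lay below those of room air by 0.34 ± 0.13 (SE, adjusted p = 0.0402). As the gene entered the test only through its P29 room-air arrays, this call supports nothing by itself. With hyperoxia replicate 2 as the only P29 hyperoxia array the difference was -0.07 (adjusted p = 0.667), with the replicate number as a block it did not pass (adjusted p = 0.0677), and it ended when any of the P29 room-air arrays or P29 hyperoxia replicate 1 or 3 was left out, and without P14 hyperoxia replicate 3 (adjusted p = 0.054). Of 7 tested cornified envelope genes 1 rose and 1 fell at P14, and 0 rose and 3 fell at P29. Of all genes 32.3% rose and 22.8% fell at P14, and 34.2% rose and 25.6% fell at P29.

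Of 17 tested other genes known from transitional alveolar cells, 10 rose and 2 fell at P14 (median 0.34), where 32.3% of all genes rose, and 5 rose and 4 fell at P29 (median 0.02), where 34.2% did. The cyclin-dependent kinase inhibitor Cdkn1a rose by 2.42 ± 0.13 (SE) and 2.79 ± 0.13, the largest changes of the list at both ages. Clusterin, Clu, rose from a mean of 9.56 to 10.57 at P14 and fell by 0.76 ± 0.09 at P29. Ndrg1, a stress-induced gene, rose by 1.53 ± 0.14 at P14, and the calcium-binding protein S100a14 by 1.03 ± 0.12 at P29. In room air 12 of the 17 rose with age and 1 fell, where 22.2% and 19.1% of all genes did.

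Each gene's profile over the 10 arrays was also set against all 14979 other genes that passed the filter. The measure was the root mean square difference of the centred log2 signals. Nearest to Krt8 was Srebf1, a regulator of lipid synthesis (0.07), nearest to Krt18 the monoamine oxidase gene Maob (0.06) and nearest to Krt7 the axonemal dynein gene Dnah11 (0.06). Nearest to Krt19 was the muscle intermediate filament gene Des (0.08), and nearest to Cldn4 the smooth muscle myosin gene Myh11 (0.11). For Itgb6 it was Ammecr1 (0.21, beside an SD of 0.98 of Itgb6 itself over the arrays), for Sfn Tmx2 (0.05), for Sprr1a Prrg2 (0.09) and for Hbegf Leprotl1 (0.08). So each keratin had a different nearest gene. Ammecr1 rose by 1.43 and 2.12 at P14 and P29, close to the values of Itgb6. Since nearest genes were picked for closeness on these same arrays, that likeness follows from the choice and is no separate result.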

How the data were processed

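Lung RNA of 10 samples was measured on expression arrays of 45101 probe sets. The values were the log2 signals that the authors deposited; Partek 6.4 and GCRMA are named in the submitters' processing notes, with settings not given in the sources used here. Groups and replicate numbers came from the sample titles. Of the probe sets, 34945 had 1 gene symbol in the platform annotation, apart from control probe sets, 932 had several and 9211 had none. Entrez numbers of 34741 matched RefSeq (GRCm38.p6) and 0 symbols changed. The brightest probe set by mean over the arrays led for each gene.

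Group means were fitted in 1 model over all 10 arrays by lmFit and eBayes (limma 3.58.1 under R 4.3.3, with 6 residual and 5.09 prior degrees of freedom), with 5 contrasts and two-sided p-values adjusted by Benjamini-Hochberg over 14988 genes. SE is that of the contrast and SD that between arrays. Other probe sets were fitted together over all 34945. Summed marker signals are sums of linear values. Precision is limited by how few arrays there are.

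The genes and lists were chosen with earlier results of these data known. Named were all members, up to 4 called genes of smallest p of a list at each age, and each member's nearest gene; other genes (Sftpc, Ager, Xist, Krt13, Krt14, Krt17, Lypd3, Egf, Epgn, Erbb4, Nrg4, Ereg, Itgav and Itgb8 at P14, and the genes of a list at the other age) were named after their values were seen. When changes were simulated for the P14 comparison over 14988 genes, 58% of 100 genes changed by 0.5 and 97% of 100 changed by 1 were called, with 7 false calls among 162. Far fewer genes were changed there than were called at P14 (4838 higher and 3412 lower). The adjustment is stricter when fewer genes change, so these shares do not give the power or error of the calls reported here. Alternatives were other filters, probe set rules, variance models, scalings, array weights, a replicate block, an actin term and leaving out arrays.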

Additional observations from a re-analysis of the deposited data

Results flagged for a closer look

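The hyperoxia effect differed between the ages for 2 of the 9 genes by the test of the difference itself. Xist was high on no P14 array and on all P29 arrays but hyperoxia replicate 1, so age and sex are mixed in these tests. For Krt18 the effect at P29 minus that at P14 was -0.74 ± 0.12 (SE, limma adjusted p = 0.00138), with all 3 P14 hyperoxia arrays above both room-air arrays and overlapping arrays at P29. For Krt19 it was -0.52 ± 0.17 (SE, adjusted p = 0.0454), with P29 room air replicate 1 as the highest array.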

How the results depend on the processing

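The 9 genes gave 971 comparisons of a gene with an alternative: 884 kept direction and side of the threshold or were uncalled in both, 57 lost a call, 30 gained a call and 0 reversed a called direction. Adding the actin 3' minus 5' difference left 2 genes higher at P14, 1 higher and 0 lower at P29 and 1 with a lower effect at P29, and over all genes 812 higher and 579 lower at P14 and 1628 and 1277 at P29, in place of 5119 and 3831. With hyperoxia replicate 2 as the only P29 hyperoxia array, 1 gene was higher and 1 lower at P29, 1 had a lower effect, and 0 rose and 0 fell with age in hyperoxia. All genes then gave 1028 higher and 1059 lower effects, in place of 1642 and 1735, and 1266 rises and 822 falls with age in hyperoxia, in place of 2315 and 1749. A lower gene (Hbegf) was called at P14, 1 in place of 0, with the trend and robust fit, quantile normalization and 75th percentile scaling. The count higher at P29 was 1 with the stricter filter, which removes Sfn, and with 75th percentile scaling. The count with a lower effect at P29 was 1 with no filter, the probe set of largest variance, array weights and the replicate block. The count that rose with age in hyperoxia was 2 with the stricter filter, the mean of probe sets, the trend and robust fit and array weights. The cause of these moves was not tested unless stated.

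Leaving out an array gave 4 to 5 genes higher and 0 lower at P14, 1 to 2 higher and 1 to 3 lower at P29, 1 to 3 with a lower effect and 0 with a higher one, 3 to 5 rising with age in room air and 0 falling, and 0 to 1 rising and 0 to 1 falling in hyperoxia. A lone remaining array was assumed to vary like the other groups. Scaling to the 75th percentile moved the share of higher calls from 58.6% to 45.0% at P14 and from 57.2% to 41.2% at P29, and the median of all genes at P29 from 0.04 to -0.09. Same-numbered arrays deviated from their group means at correlations of -0.10 to 0.20. Arrays of different numbers were not compared, and the deviations of 2 room-air arrays of a group mirror each other. These values therefore cannot exclude pairing. The main fit did not take the numbers to pair samples. The replicate block changed among the hyperoxia calls only those of Sprr1a at P29 and of Krt19 for the difference of effects (adjusted p above the threshold). The difference of effects could not be fitted from only the compared groups, since it uses all 4. Sfn and Sprr1a lie close to the floor of the signal, which limits what their values can show.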
